A study of Mus musculus with 26 samples.

Results

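CTCF, its germline paralog CTCFL and 8 genes of the cohesin complex and its partners were followed through the expression, accessibility, CTCF binding and DNA methylation data of mouse embryonic stem cells (mESC). The 10 genes were chosen by name (Ctcf, Ctcfl, Rad21, Smc1a, Smc3, Stag1, Stag2, Nipbl, Pds5a and Pds5b), and the rule used no measured value, although earlier results of these data were known when it was set. They are 10 of 21938 protein-coding genes placed on GENCODE M21 (mm10), and 10 of the 47606 genes in the expression table. For each gene, peaks, motif matches and cytosines were taken within the gene and 3 kb on either side.

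All samples used here were KH2 mESC without a Klf4 deletion, grown with LIF on irradiated feeder cells, which were then removed by pre-plating. M-ATAC (4 samples) used Tn5 transposase with methylated adaptors on open chromatin followed by bisulfite conversion, and M-ATAC-NC (2 samples) was the same material without conversion. ATAC (2 samples) used Nextera adaptors. CTCF M-ChIP (2 samples), CTCF M-ChIP-NC (2 samples) and CTCF ChIP (2 samples) were the corresponding libraries after immunoprecipitation with an antibody to CTCF. RNA-seq came from 2 WT samples that the authors merged, so expression has no replicate error. Samples of Klf4-/- cells, with or without re-expressed WT or mutant Klf4, were not used here. No label says that replicates were separate cultures, so the limma p-values below measure the spread between these samples, which may be technical. The Fisher p-values compare reads of merged tables without replicates, and cover counting error only.

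CTCF is a zinc finger protein that binds a long motif at insulators and loop anchors, and methylation of the motif is known to weaken its binding at some sites. Cohesin is a ring of SMC1A, SMC3 and RAD21 with either STAG1 or STAG2. NIPBL loads it and drives loop extrusion, PDS5A and PDS5B regulate its release and its stopping at CTCF, and CTCFL (BORIS) shares the zinc fingers of CTCF and is normally restricted to the male germline.

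The merged CTCF M-ChIP list held 24 regions in the windows of these genes, and 30 matches to the JASPAR CTCF matrix lay in them and inside the windows. A further match, of the region downstream of Smc3, lay just outside its window and is not described. Of these matches 21 contained a CpG and 9 did not. The 20 matches with at least 5 reads on a motif cytosine are shown because they lie in a merged CTCF region and have a measured methylation level. Each is 19 bases long, read 5′ to 3′ on the strand named, from the deposited list on mm10, with the bases of CpG dinucleotides in capitals. A capital C at the last base is followed by its G in the genome.
Ctcf at the start, chr8:105636756-105636774, plus strand: cCGcctctaggtgtcaCGa
Ctcf at the start, chr8:105636842-105636860, minus strand: gggaCGgtagagggagaca
Ctcf intron, chr8:105648219-105648237, minus strand: aggccagaagtgggcatCG
Ctcf downstream, chr8:105685899-105685917, minus strand: caaacaccaggggaCGcca
Ctcfl intron, 4 copies starting at 173097388, 173097452, 173097484 and 173097548 on chromosome 2, minus strand: gagcctgtaggtggCGctg
Ctcfl intron, chr2:173097516-173097534, minus strand: gaacctgtaggtggCGctg
Smc3 upstream, chr19:53599906-53599924, plus strand: gaaccagcaggaggCGctc
Stag1 UTR, chr9:100643570-100643588, plus strand: CGgccagcagagggCGgtC
Stag1 UTR, chr9:100643628-100643646, plus strand: atgccaccagatggCGggt
Stag2 upstream, chrX:42149220-42149238, plus strand: cCGcCGctagatgcCGctg
Stag2 upstream, chrX:42149269-42149287, plus strand: CGgcCGacagatggCGcct
Nipbl intron, chr15:8382389-8382407, plus strand: aCGccacaagagggcacac
Nipbl upstream, chr15:8445455-8445473, plus strand: aggcctgtaggCGaCGctg
Pds5a UTR, chr5:65696919-65696937, minus strand: aggcCGgtagaggactgtg
Pds5a UTR, chr5:65696929-65696947, minus strand: tgacCGatagaggcCGgta
Pds5b upstream, chr5:150673610-150673628, minus strand: cacacaccCGggggCGCGc
Pds5b upstream, chr5:150673690-150673708, plus strand: CGgcCGgtagggggCGctg

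Expression of 9 of the 10 genes was at least 1 TPM (an expression level scaled for gene length and library size), whereas 57.1% of protein-coding genes in the table reached that level. The same 9 genes were also at or above 5 TPM, against 44.8% of protein-coding genes. The median of the 10 genes was 65.5 TPM, and the median of all measured protein-coding genes was 2.77 TPM. Ctcf was listed at 82.9 TPM, above 92.0% of protein-coding genes. Ctcfl was listed at 0.91 TPM, so that the Ctcf level was 91.1 times that of its paralog.

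Among the ring subunits, Rad21 had 222 TPM, Smc3 had 160 TPM and Smc1a had 90.2 TPM. The 2 alternative STAG subunits were listed at nearly the same level, with 48.0 TPM for Stag2 and 45.8 TPM for Stag1, a ratio of 1.05. The loader Nipbl had 32.8 TPM, 6.78 times less than Rad21. Pds5a had 117 TPM and its paralog Pds5b 23.6 TPM, a ratio of 4.95. With 1 merged column, none of these orders has a replicate check, and in bulk RNA fewer cells of a type and less RNA per cell cannot be told apart.

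Related genes were read from fixed lists. All 8 measured cohesin regulators were above 1 TPM, from the deacetylase gene Hdac8 at 4.98 TPM to the securin gene Pttg1 at 361 TPM, with the release factor Wapl at 113 TPM, the acetyltransferase Esco2 at 144 TPM and Mau2, the partner of NIPBL, at 13.6 TPM. Sgo1 was not matched in the table. Of the 4 meiotic cohesin genes, Stag3 (28.5 TPM), Rec8 (23.1 TPM) and Smc1b (7.35 TPM) were above 1 TPM and Rad21l was at 0.21 TPM. The condensin and SMC5/6 genes ranged from 40.5 TPM for Smc5 to 218 TPM for Smc4, and the other loop-associated factors from 27.7 TPM for Zfp143 to 141 TPM for Maz. Ctcfl and Rad21l were thus the only genes of these lists below 1 TPM.

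**Figure D1:**
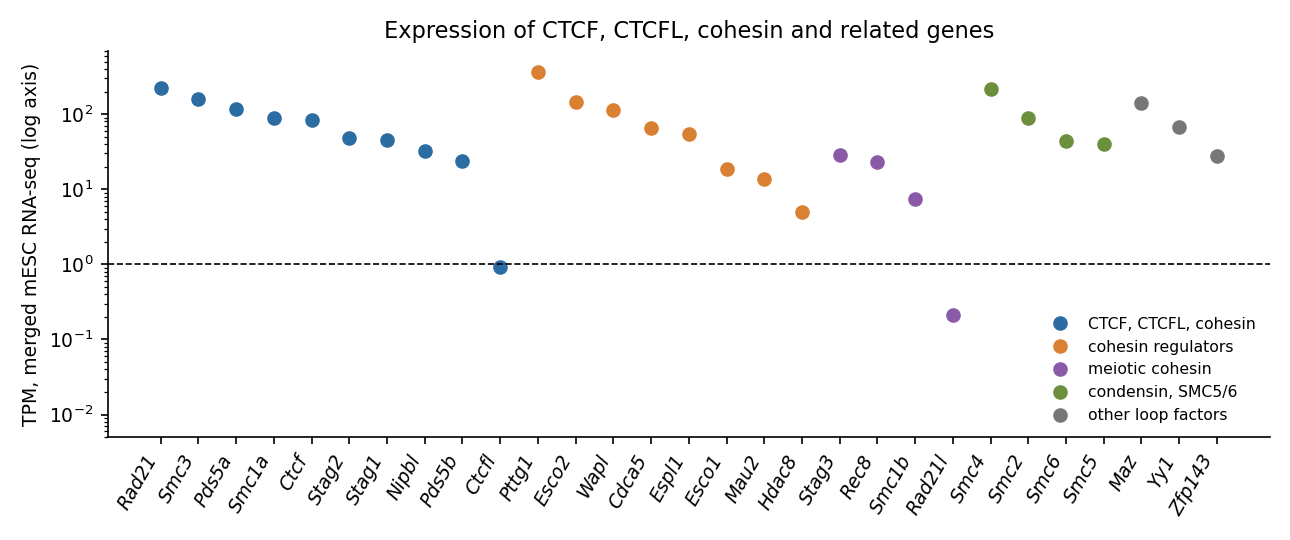
Expression in TPM (log axis) of the 10 genes and of the related lists in the merged mESC RNA-seq column. One point stands for 1 gene, without error because replicates were merged, and the dashed line marks 1 TPM. Ctcfl at 0.91 TPM and Rad21l at 0.21 TPM lie below the line.

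The cell type was checked against markers. All 7 pluripotency markers were above 1 TPM and summed to 8456 TPM, with Dppa5a highest at 5394 TPM and Pou5f1 at 657 TPM. The 7 fibroblast markers, which the feeder layer would carry, summed to 117 TPM, with Col1a1 highest at 48.7 TPM, Lum at 0.08 TPM and none listed at 0. The 6 male germ cell markers summed to 131 TPM, with Sycp3 highest at 56.3 TPM, Tex101 at 0.49 TPM and none listed at 0. The part of feeder RNA in the levels of the 10 genes was not tested.

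Accessible regions lay at the promoters of 9 of the 10 genes. They were within 3 kb of an annotated start, whereas 69.2% of protein-coding genes had a merged M-ATAC region there. The same count of 9 was found within 1 kb (64.8% of protein-coding genes) and with regions of a -log10 q of at least 5 (66.5%). In 6 genes (Ctcf, Rad21, Smc1a, Smc3, Stag1 and Pds5b) such a region had a peak in all 8 single libraries, against 34.3% of protein-coding genes. Ctcfl was the exception, with no accessible region in its window in the merged list or in any of the 8 single libraries. The 10 windows had a median length of 75.5 kb, against 23.4 kb for all protein-coding genes. They held 25 merged M-ATAC regions, or 2.22 per 100 kb against 4.01 per 100 kb over the windows of all protein-coding genes. Only 7 of the 25 had a peak in all 8 libraries (18.4% of all merged regions did), and 5 had a peak in no single library. The share of all merged regions without a peak in any single library was not counted.

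Values below are MACS2 fold enrichments at the summit over the background estimated by the peak caller. Region numbers per library lay between 24113 and 32999 for the accessibility libraries, and the median fold was 6.69 to 7.38 in M-ATAC, 6.10 and 6.31 in M-ATAC-NC and 5.38 in both ATAC samples. The read depth behind them is not in the peak lists.

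At the start of Ctcf (chr8:105635982-105636926, 5′ UTR and flank), the 4 M-ATAC samples had fold enrichments of 6.04, 6.59, 4.42 and 6.25. The M-ATAC-NC samples had 5.18 and 4.72 and the ATAC samples 6.23 and 5.61. The M-ATAC range overlapped both, while the M-ATAC-NC values were below the ATAC values. At the start of Rad21 (chr15:51991635-51992154), M-ATAC gave 11.7, 9.01, 8.70 and 6.44, M-ATAC-NC 10.2 and 9.84, and ATAC 9.40 and 8.26. All M-ATAC-NC and ATAC values fell within the M-ATAC range.

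The region at the start of Smc1a (chrX:152016178-152017078), which also holds the start of the neighbouring gene Ribc1, had 10.3, 11.0, 9.57 and 11.4 in M-ATAC, 9.86 and 11.2 in M-ATAC-NC, and 6.71 and 7.26 in ATAC. Both ATAC values were below all 6 values of the libraries made with methylated adaptors, as they also were at the internal start and the intronic region of Stag1 described next. The ATAC libraries also had the lowest median folds, and after centring the log2 difference of M-ATAC from ATAC at Smc1a was 0.14. How many of all regions had this order, or the order of M-ATAC-NC below ATAC seen at Ctcf, was not counted. At Smc3 (chr19:53599863-53600618), M-ATAC ranged from 6.88 to 11.1, with 8.47 and 6.44 in M-ATAC-NC and 5.40 and 8.18 in ATAC. Among M-ATAC samples Smc3 was lowest in replicate 1 and Rad21 lowest in replicate 4, so no single replicate was low at every start.

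Stag1 was more open at an internal start, chr9:100642979-100643676, annotated as UTR, than at its outermost one. Fold enrichment at the internal start was 11.4, 11.4, 12.1 and 9.49 in M-ATAC, 10.4 and 12.2 in M-ATAC-NC, and 8.97 and 7.99 in ATAC. All 8 were above every value of the outermost start. The region at that start (chr9:100597648-100597979) reached only 6.10 and 4.56 in M-ATAC replicates 3 and 4 and had no peak in replicates 1 and 2. An intronic region at chr9:100605730-100606309 was found in all 8 libraries, with 6.92 to 10.3 in M-ATAC and 5.86 and 5.78 in ATAC.

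For Stag2, the upstream region chrX:42148815-42149260 had 7.41, 5.65 and 3.75 in M-ATAC replicates 1 to 3 and no peak in replicate 4. A second region at chrX:42152103-42152318, in a UTR at an annotated start, had 4.98, 11.6, 9.09 and 10.3 in the 4 M-ATAC samples and no peak in any M-ATAC-NC or ATAC library. Over the genome 0.259% of merged M-ATAC regions showed that pattern (173 of 66726). An intronic region of Nipbl, chr15:8420972-8421178, likewise had 10.1, 8.42 and 8.92 in M-ATAC replicates 1 to 3 and no peak in replicate 4 or in the unconverted and ATAC libraries. At least 3 M-ATAC peaks with none in the other 4 libraries were found for 1.22% of regions, and for 2 of the 25 here. All these regions come from the merged M-ATAC list, so sites with peaks in M-ATAC-NC or ATAC alone could be missing from it.

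The start of Nipbl was weakly open. The region chr15:8444621-8444873 had a peak only in ATAC replicate 2, at 5.39, and the region chr15:8445436-8445586, farther upstream, only in the M-ATAC-NC samples, at 4.51 and 3.69, although its fold enrichment was 11.2 in the merged M-ATAC list. Pds5a (chr5:65697941-65698645) had 5.95, 6.31, 5.02 and 6.12 in M-ATAC, no peak in either M-ATAC-NC sample, and 5.19 in ATAC replicate 1 alone. Pds5b (chr5:150673481-150673940) had a peak in all 8 libraries, with 11.1, 12.3, 10.03 and 10.5 in M-ATAC, 8.08 and 12.2 in M-ATAC-NC, and 7.90 and 9.85 in ATAC.

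**Figure D2:**
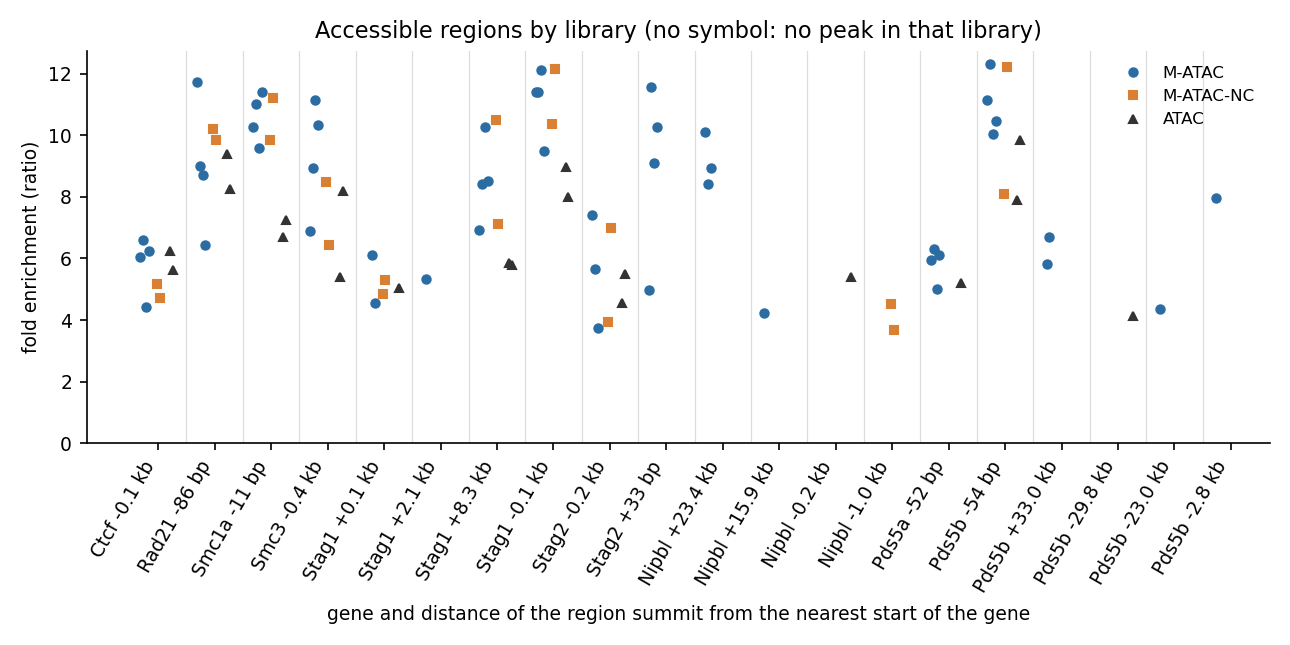
Fold enrichment (ratio, vertical axis) of the merged M-ATAC regions that had a peak in at least 1 single library, by gene and by distance from the nearest annotated start of any transcript of that gene. Each symbol is 1 library, and a missing symbol means that no peak was called. At Smc1a the 2 ATAC samples (6.71 and 7.26) lie below all others, as their library medians do, and the second Stag2 region has symbols for M-ATAC only.

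The assays were compared at the 7 regions of these genes with a peak in all 8 libraries, by limma on log2 fold enrichment centred on the median of each library, with Benjamini-Hochberg adjustment over all 12291 such regions. Regions without a peak in some library, such as the second Stag2 region and the start of Pds5a, were thus not tested. None of the 7 was called between M-ATAC and M-ATAC-NC (lowest limma adjusted p = 0.637). Over all 12291 regions 0 were called (0%), with 1333 at an unadjusted p under 0.05. The unconverted samples were aliquots of M-ATAC material, and with the replicate number as a block 186 regions were called, 63 higher and 123 lower in M-ATAC, but again none of the 7 (lowest limma adjusted p = 0.450). Without the block, the log2 differences of the 7 lay between -0.30 and 0.21, with a median of -0.10, against 0.02 over all regions. The median of the 7 was -0.05 without M-ATAC replicate 1 and -0.0031 with M-ATAC replicates 3 and 4 only. The half-widths of the 95% intervals of the 7 were 0.40 to 0.52. M-ATAC and ATAC differ in conversion and in transposase adaptors at once, and the effects of these cannot be told apart in that comparison. None of the 7 was called between M-ATAC and ATAC either, where 71 regions (0.578%) were called, 40 higher (0.325%) and 31 lower (0.252%) in M-ATAC. That count was 0 to 121 with 1 library left out, and 1069 with the replicate block (458 higher and 611 lower), again with none of the 7. The median difference of the 7 was -0.07, against 0.0030 over all regions. It was -0.23 and -0.04 without ATAC replicates 1 and 2, and -0.04 and -0.11 without M-ATAC replicates 2 and 3. With the replicate block it was -0.12, and without centring it was 0.39. Of the 7, 1 had an unadjusted p under 0.05, as had 2351 of all 12291 regions.

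The lowest differences from ATAC were at the starts of Ctcf, with a log2 difference of -0.49 ± 0.21 (SE, limma adjusted p = 0.217) after centring, and Rad21, with -0.46 ± 0.23 (adjusted p = 0.283). Their order changed with the M-ATAC libraries used, and the Rad21 difference was -0.29 with the replicate block. The median of all uncentred differences from ATAC was 0.46 on the log2 scale. Without centring the Ctcf difference was -0.04, the Rad21 difference was -0.01, and 33.2% of all regions were called, 4061 higher (33.0%) and 17 lower (0.138%) in M-ATAC. The start of Smc1a was then called, with a log2 difference of 0.60 ± 0.21 (limma adjusted p = 0.0359), whereas the centred difference was 0.14 ± 0.19 (adjusted p = 0.723).

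Methylation of the accessible regions was low. In M-ATAC, 1046 cytosines of these regions had at least 5 reads in the merged table (median 11 reads), and 998 of them had no methylated read. Reads are counted at each cytosine, so that 1 read over several cytosines enters several times, here and in all pooled values below. Pooled over the cytosines, 70 methylated read counts among 14599 gave a methylation level of 0.479%, which was 0.267% with at least 10 reads and 0.770% as a mean of cytosine percentages. Its 95% Wilson interval of 0.380 to 0.605%, like the other intervals pooled over cytosines, covers counting error only and is too narrow, because it takes these counts as independent. The level was 1.87% over all merged M-ATAC regions, pooled with at least 5 reads. The median over the 20 regions with a measured cytosine was 0.373%, against 4.11% over all regions. At least 20% of reads were methylated in 4 of the 20 regions, and in 23.8% of all regions.

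At the start of Ctcf none of 1428 read counts over 145 cytosines was methylated. The starts of Rad21 (1 of 1057 reads), Smc1a (3 of 1157), Smc3 (8 of 1490), Pds5a (7 of 2000) and Pds5b (8 of 2023) were all under 1%. At the internal start of Stag1 7 of 3697 reads were methylated. The M-ATAC-only regions of Stag2 (0 of 252 reads) and Nipbl (1 of 147 reads) were also under 1%.

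The 4 regions at or above 20% lay in introns, with fold enrichments of 4.71 to 7.49 in the merged list. In Stag1, chr9:100599569-100600022 had 9 of 24 reads methylated (37.5%, 21.2 to 57.3%). In Pds5b, chr5:150717899-150718046 had 8 of 33 (24.2%, 12.8 to 41.0%) and chr5:150724735-150724967 had 2 of 5. In Nipbl, chr15:8428467-8428653 had 2 of 10. At the outermost start of Stag1, 7 of 42 reads were methylated (16.7%, 8.32 to 30.6%). Each of these 5 regions had a peak in 2 or fewer of the 4 M-ATAC samples.

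The windows of these genes had a longer median length than those of all protein-coding genes, as given above. CTCF M-ChIP regions lay in the windows of 8 of the 10 genes, against 54.4% of protein-coding gene windows. It was also 8 for the genes without flank (43.7%), for regions of a -log10 q of at least 5 (51.7%) and for regions with a motif match (51.6%), 7 for a motif match of p at most 1e-05 (47.1%), and 6 for a peak in all 6 libraries (34.4%). Rad21 and Smc1a had no CTCF region in the merged list or in any of the 6 single libraries. The 24 regions amounted to 2.13 per 100 kb, close to 2.19 per 100 kb over all gene windows. Of the 24, 11 had a peak in all 6 libraries (43.7% of all CTCF regions did), 8 overlapped an accessible region (22.0% of all did) and 20 held a motif match (91.0% of all did). A CTCF region lay within 1 kb of an annotated start in 8 of the 10 genes, against 18.2% of protein-coding genes (32.2% within 3 kb), but only 4 of the 10 genes had one within 3 kb that was found in all 6 libraries (17.1% of protein-coding genes).

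The CTCF libraries had 22261 to 49633 regions, and the median fold enrichment was 8.34 and 6.85 in CTCF M-ChIP, 7.21 and 7.77 in CTCF M-ChIP-NC, and 9.81 and 11.1 in CTCF ChIP. The Ctcf gene itself had a CTCF region at its start (chr8:105636720-105636925), with 12.1 and 6.43 in CTCF M-ChIP, 9.70 in CTCF M-ChIP-NC replicate 1 and no peak in replicate 2, and 14.0 and 18.2 in CTCF ChIP. Its strongest region lay downstream, at chr8:105685761-105686058, with 17.1 and 11.3, 14.1 and 9.25, and 17.6 and 24.1 in the same order of groups. There the match with a CpG shown above had 3 of 42 reads methylated.

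With no accessible region in its window (22.0% of all merged CTCF regions overlapped one), Ctcfl had 4 CTCF regions. Those at chr2:173097329-173097612, chr2:173107346-173107685 and chr2:173113870-173114114 were intronic and found in all 6 libraries. The last of these had 13.2 and 6.16 in CTCF M-ChIP, 6.21 and 8.93 in CTCF M-ChIP-NC, and 15.4 and 20.8 in CTCF ChIP. The region beside its start (chr2:173119702-173119861), which also holds the start of Ctcflos, was weak, with 4.22 in CTCF M-ChIP-NC replicate 2, 6.55 and 7.63 in CTCF ChIP, and no peak in the other 3 libraries.

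The first of these Ctcfl regions held a tandem array of motif matches. The 6 copies were spaced 32 bp apart without exception over chr2:173097388-173097566, with 5 identical copies and 1 that differs, both shown above. Only 16 of 38881 merged CTCF regions (0.0412%) held 6 or more matches. Fold enrichment was 11.5 and 7.24 in CTCF M-ChIP, 5.96 and 5.68 in CTCF M-ChIP-NC, and 10.5 and 10.8 in CTCF ChIP. Of the 179 stretches of 50 bases over the array, 137 occur once in the genome and 42 occur 2 times.

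Most CTCF M-ChIP read counts of the array were methylated. Over the 5 cytosines with at least 5 reads the level was 71.6% (48 of 67 read counts), where 1 read can cover neighbouring copies, and single cytosines ranged from 33.3% (3 of 9 reads) to 91.7% (11 of 12 reads). All 5 belonged to the CpG that starts at position 15 of the motif, counted from 1 at its 5′ end. The other 2 matches of Ctcfl introns contained no CpG.

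Outside Ctcfl, motif methylation was mostly low. Of the 20 measured matches, 9 had no methylated read, 4 were above 0 but under 20%, and 7 were at or above 20%, of which 5 were copies of the Ctcfl array. Over all measured motif matches 28.4% reached that level. Among the 10 matches with 20 or more reads, 1 did (the differing copy of the array, 18 of 23 reads), against 14.8% of all matches of that depth. The other 2 were the intronic match of Ctcf at 3 of 6 reads, in a region with no peak in any single library, and the intronic match of Nipbl at 3 of 8 reads. The 10 matches of Smc3, Stag1, Stag2, Pds5a, Pds5b and the upstream region of Nipbl had 0 or 1 methylated read each, for example 0 of 60 reads for the second Stag2 match and 1 of 64 reads for the second Pds5b match.

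**Figure D3:**
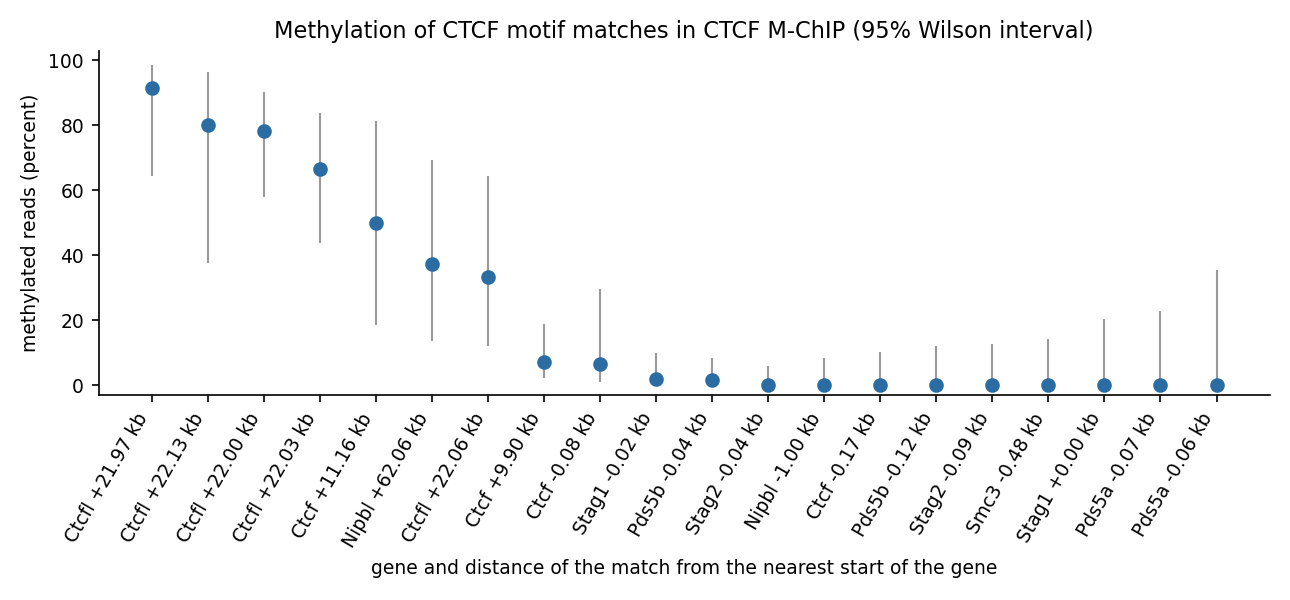
Methylated reads in percent (vertical axis) for the 20 CTCF motif matches with at least 5 reads on a motif cytosine, by gene and distance from its nearest annotated start. Points are read counts pooled over the cytosines of a match in merged CTCF M-ChIP and bars are 95% Wilson intervals, which are too narrow where 1 read covers several cytosines. The 5 copies of the Ctcfl array lie between 33.3 and 91.7%, and 13 matches lie under 20%.

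Among the cohesin genes, Smc3 had CTCF upstream of its start (chr19:53599773-53600005). Fold enrichment there was 13.0 and 10.9 in CTCF M-ChIP, 5.58 and 8.38 in CTCF M-ChIP-NC, and 15.2 and 21.1 in CTCF ChIP. Before centring the 3 groups did not overlap, with CTCF M-ChIP above CTCF M-ChIP-NC. The intronic region of Smc3 (chr19:53638117-53638412) was ordered the other way, with 3.97 and 5.56 in CTCF M-ChIP below 7.19 and 5.85 in CTCF M-ChIP-NC, and 7.69 and 9.94 in CTCF ChIP. CTCF ChIP also had the highest library medians. How many of all regions had either order, or 3 groups without overlap, was not counted. After centring, the upstream region had log2 differences of 0.66 from CTCF M-ChIP-NC and 0.16 from CTCF ChIP, and neither was called. A region downstream of Smc3 was also found in all 6 libraries. Stag1 was bound at its internal start (chr9:100643473-100643710), with 12.8 and 6.49, 8.18 and 6.19, and 18.3 and 21.05 in the same order of groups. Its 2 other regions were intronic, and their matches held no CpG.

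Stag2 had its single CTCF region at the start (chrX:42149130-42149335), with 16.0 and 6.90 in CTCF M-ChIP, 10.9 and 8.69 in CTCF M-ChIP-NC and 13.9 and 26.5 in CTCF ChIP. Nipbl had 3 CTCF regions. The upstream one (chr15:8445425-8445696) overlapped its accessible region, with 9.88 and 5.03, 5.83 in replicate 1 only, and 13.4 and 22.5. The others were intronic, with a peak in 4 libraries (chr15:8382327-8382531, 4.26 to 9.46) and in 3 libraries (chr15:8406321-8406611, 4.35 to 6.05). Pds5b had CTCF at its start (chr5:150673545-150673797), with 13.3 and 7.30, 9.56 and 9.65, and 14.9 and 24.3. For Pds5a the only region (chr5:65696864-65697016, coding exon and UTR) had 5.25 in CTCF M-ChIP replicate 1 and 5.10 and 8.63 in CTCF ChIP, and no peak in the other 3 libraries.

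**Figure D4:**
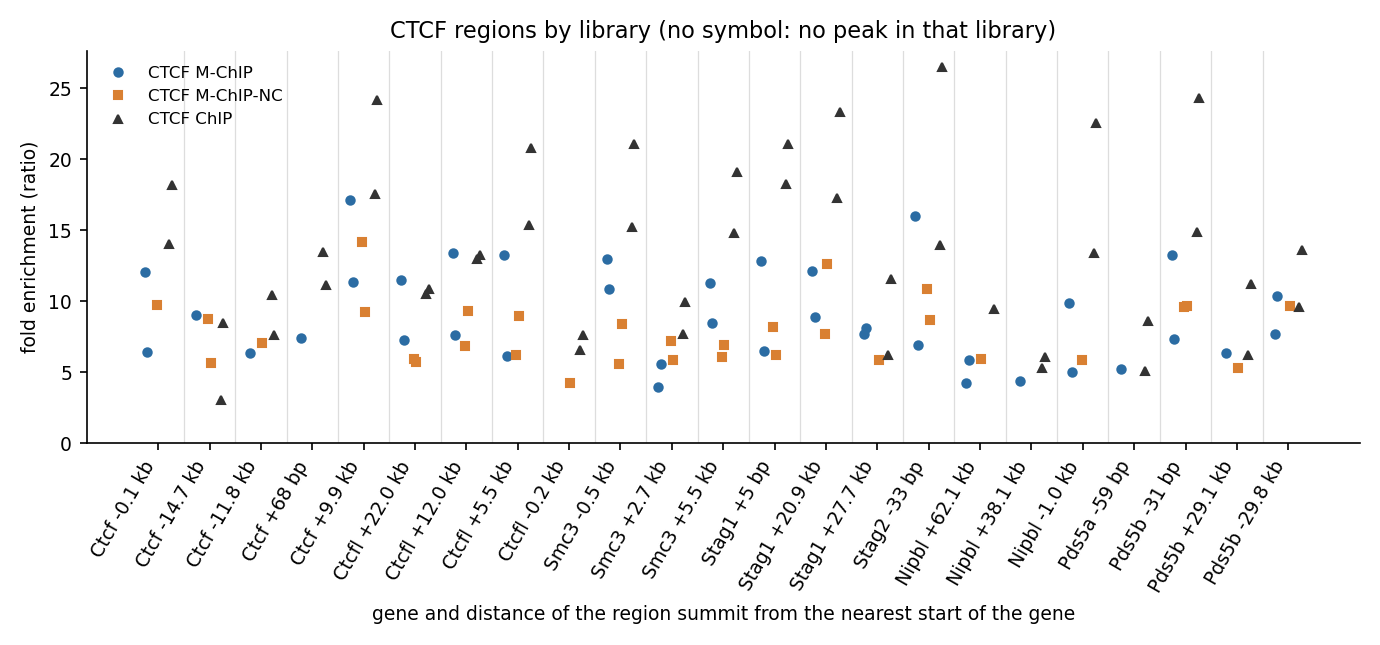
Fold enrichment (ratio, vertical axis) of the 23 merged CTCF M-ChIP regions with a peak in at least 1 single library, by gene and distance from its nearest annotated start. Each symbol is 1 library, and a missing symbol means that no peak was called. CTCF ChIP values tend to lie highest, as the library medians do, and Rad21 and Smc1a have no region to show.

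The groups were compared by limma at the 11 regions of these genes with a peak in all 6 libraries, among 16988 such regions. None was called for CTCF M-ChIP against CTCF M-ChIP-NC (lowest limma adjusted p = 0.628), where 1 region in all was called (0.00589%). An unadjusted p under 0.05 was found for 1 of the 11 and for 1240 of all 16988 regions. None was called against CTCF ChIP (lowest limma adjusted p = 0.701). There 0 regions in all were called (0%), with 1221 at an unadjusted p under 0.05. The median difference of the 11 from CTCF ChIP was -0.12, against 0.03 over all regions. It was -0.06 without CTCF M-ChIP replicate 1, 0.11 without replicate 2, -0.02 without CTCF ChIP replicate 2 and -0.87 without centring. The log2 differences of the 11 from CTCF M-ChIP-NC lay between -0.60 and 0.66, with a median of 0.15 (0.0025 over all regions). That median was -0.09 without CTCF M-ChIP replicate 1, 0.43 without replicate 2, 0.26 without CTCF M-ChIP-NC replicate 1 and 0.29 without centring. The highest difference was at the upstream region of Smc3 (0.66 ± 0.26, SE, limma adjusted p = 0.628). The lowest was at the intronic region of Smc3 (-0.60 ± 0.30, limma adjusted p = 0.697). The half-widths of the 95% intervals were 0.53 to 0.64. The value of the intronic Smc3 region was -0.18 without CTCF M-ChIP replicate 1, -0.33 without CTCF M-ChIP-NC replicate 1 and -1.02 without CTCF M-ChIP replicate 2. The Ctcfl array had log2 differences of 0.51 ± 0.27 from CTCF M-ChIP-NC (limma adjusted p = 0.720) and 0.53 ± 0.27 from CTCF ChIP (limma adjusted p = 0.701), and the last of these was -0.23 without centring.

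Without centring, 6 of the 11 regions were called lower in CTCF M-ChIP than in CTCF ChIP, as were 5597 regions in all (32.9%) against 1 higher (33.0% called in all). The median uncentred difference over all regions was -0.73 on the log2 scale. The 6 regions were in Ctcfl (the intronic region nearest the start), Smc3 (intron), Stag1 (internal start and 1 intron), Stag2 and Pds5b (starts), with log2 differences of -1.10 to -0.87.

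Between the first and last coding exon of Ctcf, CTCF peaks coincided with the coding exons. The gene also had CTCF peaks before its first coding exon. Besides the region at the start, an intronic one (chr8:105661232-105661497) had a peak in 5 CTCF libraries and held no motif match. Ctcf has 10 coding exons of 2208 bases in all, from chr8:105663763 to 105681616, with 15646 bases of intron between them. In CTCF ChIP replicate 1, 9 of the 10 exons were at least 50% inside a peak, and peaks covered 83.8% of coding bases but 12.0% of the introns. In CTCF ChIP replicate 2, 6 exons were covered to that extent, with 66.8% of coding bases and 3.78% of the introns. In CTCF M-ChIP-NC replicate 2 it was 3 exons, and in CTCF M-ChIP replicate 2 it was 2.

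CTCF M-ChIP replicate 1, CTCF M-ChIP-NC replicate 1 and all 8 accessibility libraries had no peak there. In the 4 libraries that did, the number of summits was 11, 9, 4 and 2, and every one lay in a coding exon. Fold enrichments of these regions were 5.19 to 13.5 in CTCF ChIP replicate 1, 4.08 to 11.1 in CTCF ChIP replicate 2, 5.36 to 7.03 in CTCF M-ChIP-NC replicate 2, and 6.35 to 7.41 in CTCF M-ChIP replicate 2. Exon 4 was not covered in any library. The 2 merged CTCF M-ChIP regions in coding exons held no motif match. The deposited motif scan covered merged CTCF M-ChIP regions only, so the other exons and the introns were not searched for motifs.

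The number of covered exons was also counted for other genes. Among 14132 genes with at least 5 coding exons, no other gene had as many covered exons as Ctcf in CTCF ChIP replicate 1, where the next highest had 4. In replicate 2 only Lrp1, named here after its value was seen, had as many (6). By comparison, 27 other genes had at least as many covered exons as Ctcf in CTCF M-ChIP replicate 2 and 4 had in CTCF M-ChIP-NC replicate 2. At least 3 covered exons were found for 0.205% of these genes in CTCF ChIP replicate 1, 0.446% in replicate 2 and 0.0354% in CTCF M-ChIP-NC replicate 2. The cause of the exon peaks was not tested.

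**Figure D5:**
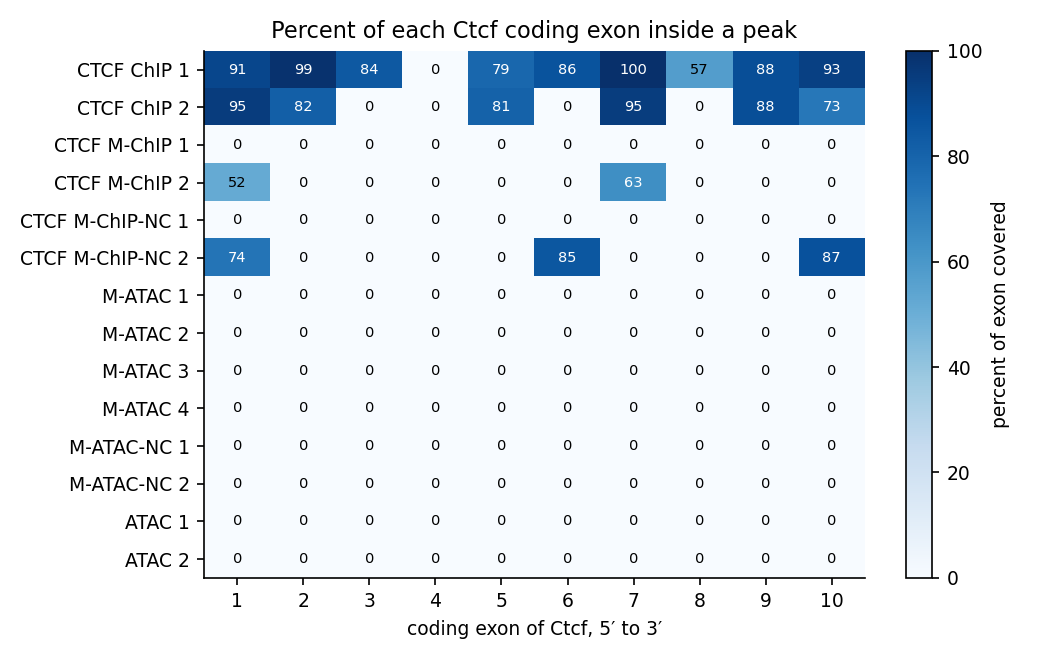
Percent of each of the 10 Ctcf coding exons (horizontal axis, 5′ to 3′) that lay inside a peak, for the 6 CTCF libraries and the 8 accessibility libraries (rows). Colour and number give the same value, rounded. The 2 CTCF ChIP samples have 9 and 6 exons at 50% or more, and the accessibility libraries have 0 in every cell.

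These regions also set the number of CTCF regions counted in the window of Ctcf. It was 11 and 9 in CTCF ChIP, 3 and 4 in CTCF M-ChIP, and 3 and 5 in CTCF M-ChIP-NC. Without those overlapping a coding exon, a choice made after seeing the data, it was 3 and 3, 3 and 2, and 3 and 2. In the merged list 2 of the 6 regions were of this kind.

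Cytosines measured in both assays were compared to ask whether DNA bound by CTCF was methylated differently from open DNA at the same positions. In the windows of 5 of the genes, 28 cytosines had at least 5 reads in both merged tables, and all 28 lay inside CTCF motif matches. Of 272 reads in CTCF M-ChIP 3 were methylated, and of 461 reads in M-ATAC none was. No cytosine of the 28 was called by Fisher's exact test (two-sided, lowest adjusted p = 1), with 0 at an unadjusted p under 0.05, and over all 10066 cytosines 0 were called (0%) and 20 were under 0.05 unadjusted. The Ctcfl array was not in this comparison, since no accessible region covered it.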

How the data were processed

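The 10 genes and the gene lists were chosen with earlier results of these data known. The authors trimmed reads, aligned them to mm10 (Bismark 0.18.1 for converted libraries, Bowtie2 for ATAC and CTCF ChIP, with the aligner of unconverted controls not given in the sources used here), removed duplicates and called peaks with MACS2 in each library and on merged replicates. Each deposited peak list holds, for every summit, a score, a ratio (fold enrichment) and significance as −log10 of p and q. The authors' tables give a count of methylated and of unmethylated reads and a percent per cytosine of merged replicates, without naming the M-ATAC replicates merged. For motif matches the deposited values are the score and p-value of FIMO, and for expression they are TPM that the authors made from merged RNA-seq, whose aligner and annotation are not given in the sources used here. The 6 KLF4 lists were not used here.

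Regions were counted once whatever their number of summits, coordinates are 1-based, and a library had a merged region if any peak of it overlapped, with its highest fold enrichment. Groups were compared with limma 3.58.1 (R 4.3.3) over all groups of an assay, at an adjusted p of 0.05, and cytosines with Fisher's exact test (scipy 1.17.1). Genes named beyond the 10 come from the fixed lists of cohesin regulators, meiotic cohesin, other SMC genes, loop factors and cell type markers, or have their start in a region described. The motif matches printed were those with at least 5 reads at a motif cytosine. Both tests were tested on simulated data of the same size, where limma missed many of the smaller changes in the M-ATAC comparisons, and nearly all of the smaller and many or most of the larger ones in the CTCF comparisons, and the Fisher test missed most large changes at cytosines with few reads. Of the 9 regions with a peak in all 4 M-ATAC samples, none had a sample beyond the critical value of Dixon's ratio (0.829).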

Additional observations from a re-analysis of the deposited data

How the results depend on the processing

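The counts of genes with an accessible promoter (9), with a CTCF region (8) and with at least 1 TPM (9) stayed within 1.5 times under all alternatives run, the lowest being 6 with a peak required in all 8 or all 6 libraries. Without centring, the number of regions of these genes called became 1 of 7 for M-ATAC against ATAC and 6 of 11 for CTCF M-ChIP against CTCF ChIP, and the Ctcfl array difference from CTCF ChIP turned to -0.23. In every other alternative run, including each library left out (range 0 to 0 in all 4 comparisons), 0 were called. Over all regions, calls for M-ATAC against ATAC, 71 in the main comparison, were 0 to 121 with a library left out (0 without ATAC replicate 1, 1 without ATAC replicate 2, 2 without M-ATAC replicate 2 or either M-ATAC-NC sample, 22 without M-ATAC replicate 4, 37 without replicate 1 and 121 without replicate 3) and 110 with M-ATAC replicates 3 and 4 only. Methylation of accessible regions was 0.267% with at least 10 reads and 0.770% as a mean of cytosine percentages. The array had 77.4% with at least 10 reads, an alternative chosen after seeing the data.

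The unconverted samples were aliquots taken before conversion, but no source says that equal numbers mark 1 source, and deviations of same-numbered samples correlated at -0.01 to 0.08 over regions. With replicate number as a block, 186 regions in all were called for M-ATAC against M-ATAC-NC, 1069 for M-ATAC against ATAC, 1 for each CTCF comparison, and 0 of these genes.

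Methylation came from merged tables, so it has no replicate error, and with 5 reads a cytosine moves in steps of 20%. An absent call, in limma or in the Fisher test, does not show that groups were alike, and least of all between CTCF libraries.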

Other observations

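Among the other 9 genes, exon coverage by CTCF peaks was sparse. In both CTCF ChIP samples 1 of 10 coding exons of Ctcfl and 1 of 32 of Pds5a were at least 50% covered, and no coding exon of Rad21, Smc1a, Smc3, Stag1, Stag2, Nipbl or Pds5b was, in any of the 6 CTCF libraries. In the accessibility libraries, 1 of 25 coding exons of Smc1a was covered in the 4 unconverted libraries (M-ATAC-NC and ATAC), 1 of 29 of Smc3 in both M-ATAC-NC samples, and none of either in M-ATAC.

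RefSeq promoter sequences (GRCm38.p6) of 300 bases were matched for Ctcf, Smc1a, Smc3, Stag1, Pds5a and Pds5b. They held 23 (Smc1a) to 55 (Pds5a) CpGs, where the median of 27025 promoters was 7.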
